A study of Mus musculus with 6 samples.

Results

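AMPA receptors are the glutamate-gated channels that carry most fast excitatory transmission in the brain. The channel itself is built from the pore-forming subunits GRIA1 to GRIA4, and auxiliary subunits bind to it, help it to leave the endoplasmic reticulum, hold it at the synapse and set how fast it closes and desensitizes. Genes of 3 families of such subunits were followed: the transmembrane AMPA receptor regulatory proteins (TARPs) Cacng2, Cacng3 and Cacng8, the cornichons Cnih2 and Cnih3, and the CKAMP proteins Shisa6, Shisa7 and Shisa9. The members were taken by gene symbol, which gave 8 of the 31253 genes in the counts. The set had been selected on a measured value, the fall of the Shisa9 counts summed over neurons after sevoflurane, so the values of Shisa9 in neurons and in every neuron subtype are given as a description, with no test.

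In the hippocampus TARP γ-8, the product of Cacng8, is an abundant partner of AMPA receptors in pyramidal neurons, and stargazin, the product of Cacng2, is the TARP whose loss gives the stargazer mouse. CKAMP44, the product of Shisa9, is known for slowing the recovery of AMPA receptors from desensitization in dentate granule neurons. CKAMP52, the product of Shisa6, keeps receptors at the synapse from desensitizing.

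The study held 6 libraries of single-cell RNA from the hippocampus of mice that the labels call elderly. The Control group of 3 libraries was from mice given air, and the Sevoflurane group of 3 libraries was from mice given the inhaled anaesthetic sevoflurane at 2% for 6 h. Both groups were sampled 24 h later, and strain, sex and exact age are not given in the labels. The labels number the libraries within a group and do not tie each one to an animal, so a p-value here reflects only how far these libraries spread, which may be technical.

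The annotation used here, GENCODE vM21 on GRCm38, places Shisa6 (ENSMUSG00000053930) at chr11:66211725-66525964 on the minus strand and Shisa9 (ENSMUSG00000022494) at chr16:11984113-12270902 on the plus strand. These genes are long, spanning 314.24 kb and 286.79 kb, against a median of 12.73 kb over all genes. Shisa7 (ENSMUSG00000053550) lies at chr7:4825552-4844696 on the minus strand. Cacng8 (ENSMUSG00000053395) lies at chr7:3390683-3415648 and Cacng3 (ENSMUSG00000066189) at chr7:122670492-122769393, both on the plus strand. Cacng2 (ENSMUSG00000019146) lies at chr15:77991748-78120028 and Cnih2 (ENSMUSG00000024873) at chr19:5092868-5098521, both on the minus strand. Cnih3 (ENSMUSG00000026514) lies at chr1:181352628-181460641 on the plus strand. Annotated genes on the opposite strand overlap 3 members, namely Gm44151 at Cacng8, A730060N03Rik at Cacng2 and Yif1a at Cnih2. Whether the counting used strand is not stated in the labels or headers, so whether the counts of a member hold reads of its partner is not known.

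RefSeq promoter windows on GRCm38.p6, running from 250 bases before to 50 bases after a gene's start, were found for 6 of the 8 members. The windows of Cacng2 and Cacng8 are shown because these genes passed the test together in CA1 pyramidal neurons. The Cacng2 window is chr15:78119231-78119530 on the minus strand and the Cacng8 window is chr7:3393792-3394091 on the plus strand, and capitals mark E-boxes.
Cacng2: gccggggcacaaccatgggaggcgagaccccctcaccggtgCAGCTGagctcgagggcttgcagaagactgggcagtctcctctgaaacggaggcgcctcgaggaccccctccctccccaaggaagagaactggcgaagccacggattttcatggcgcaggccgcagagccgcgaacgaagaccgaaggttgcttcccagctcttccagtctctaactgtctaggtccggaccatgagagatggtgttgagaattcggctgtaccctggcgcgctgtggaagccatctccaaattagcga
Cacng8: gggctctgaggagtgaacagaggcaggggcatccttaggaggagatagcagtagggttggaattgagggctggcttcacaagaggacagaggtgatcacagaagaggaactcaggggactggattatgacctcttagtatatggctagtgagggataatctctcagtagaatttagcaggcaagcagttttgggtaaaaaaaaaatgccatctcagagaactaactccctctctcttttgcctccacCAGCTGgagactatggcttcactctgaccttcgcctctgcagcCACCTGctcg
The E-box was searched as CANNTG, which is its own reverse complement, and it matched 1 time in the Cacng2 window and 2 times in the Cacng8 window, while 72.3% of all 32851 RefSeq promoter windows held it. A GC box (GGGCGG, either strand, in 35.7% of windows), a TATA box (TATAAA, either strand, in 13.6%) and the cAMP response element TGACGTCA (in 1.79%) had no match in these 300 bases of either gene. The windows differed in composition: Cacng2 held 20 CG pairs at 61% G and C, Cacng8 2 at 50%, and the median window held 7 CG pairs. Both windows lie inside the gene's span in the GENCODE annotation, downstream of the start given there. Windows were also found for Shisa7, Cnih2, Cnih3 and Cacng3, and not for Shisa6 and Shisa9.

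Depth ran from 54426522 to 70741809 unique molecular identifiers (UMIs, which count captured RNA molecules) per library, with 6645 to 8996 cells kept and a median of 5342 to 6242 UMIs per cell. No 2 libraries shared more than 0.333% of the barcodes of the smaller one. Clustering of 46876 cells, without the members and the pore-forming subunits among the clustering genes, gave 32 clusters. They were named by markers, and class names here are short for granule-neuron-like, astrocyte-like and so on. Neurons made up 29086 cells in 19 clusters, and 8 of these stayed without a subtype name (19.2% of neurons in Control and 19.1% in Sevoflurane). These shares hide 2 unnamed clusters that were rare in Control. One held 9, 6 and 1 cells in Control 1 to 3 and 141, 193 and 171 in Sevoflurane 1 to 3. The other held 0, 0 and 0 cells in Control and 36, 56 and 32 in Sevoflurane. Both are part of the sums over all neurons, and the closing section covers the counts without them. Sevoflurane 1 stood apart in Xist, which coats an inactive X chromosome, with 1442 CPM (UMI counts scaled to a common library total, as usual) against 0.499 to 1.41 in the other libraries, and had 0 CPM of the Y-linked Eif2s3y against 123 to 146. The sexes were thus not balanced, and results that passed the test are also given without this library. Choroid plexus cells numbered 65, 19 and 100 in Control and 0, 1 and 4 in Sevoflurane. The summed level of the 7 choroid plexus markers in neurons was 71.4 to 317 CPM in Control and 25.3 to 32.0 CPM in Sevoflurane, and its part in the results was not tested.

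Across the Control libraries the TARP genes had different orders of level over the cell classes. Levels are CPM with TMM factors, which adjust a library's total in a class for differences in RNA composition, and an order is within a gene. All sums of markers are CPM without these factors, and they were not compared between groups with them. Gm44151 in neurons had means of 167 (Control) and 149 CPM (Sevoflurane) without the factors, and 175 and 143 with them. Cacng8 was highest in CA1 pyramidal neurons (202 ± 23.6 CPM, SD, n = 3), dentate granule neurons (179 ± 15.5) and CA3 pyramidal neurons (166 ± 28.1), and the ranges of neighbours in this order overlapped. Below them stood the interneurons of the Lhx6 lineage (113 ± 21.3 CPM) and, as the highest class outside neurons, astrocytes (75.5 ± 8.96). Cacng2 had another order, led by Lhx6-lineage interneurons (209 ± 12.9 CPM), whose range lay above that of every other class, and it was lowest among neuron subtypes in CA1 pyramidal neurons (42.1 ± 2.02). Cacng3, the TARP γ-3 gene, was highest in retrohippocampal excitatory neurons (164 ± 18.6 CPM), Lhx6-lineage interneurons (143 ± 22.3) and granule neurons (115 ± 9.29), with overlapping neighbours. Its value in CA3 pyramidal neurons was 27.7 ± 1.12 CPM, the range of which overlapped that of microglia (29.9 ± 5.83).

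The CKAMP genes were set apart from each other by the subtype in which they stood highest. Shisa6 was highest in CA3 pyramidal neurons (1700 ± 129 CPM), then in CA1 pyramidal neurons (1188 ± 73.9) and granule neurons (783 ± 40.0), and the ranges of these classes did not overlap. Adarb2-lineage and Lhx6-lineage interneurons followed at 546 ± 72.2 and 518 ± 62.4 CPM, with overlapping ranges. Shisa9 had the reverse order over these 3 subtypes: granule neurons stood at 930 ± 28.8 CPM, retrohippocampal neurons at 452 ± 20.2, CA1 pyramidal neurons at 152 ± 14.1 and CA3 pyramidal neurons at 74.5 ± 12. Interneurons of the Adarb2 lineage were second for Shisa9 (744 ± 82.5 CPM), and oligodendrocyte precursors (290 ± 22.3) were the highest class outside neurons. Shisa7 was highest in CA1 pyramidal neurons (118 ± 5.70 CPM), above granule neurons (87.0 ± 0.877) and a cluster of interneurons led by Reln and Erbb4 (83.2 ± 9.51). When each cell was classed by its own marker counts in place of its cluster, the highest class of 7 members was the same and Cacng8 was highest in granule neurons.

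The cornichons differed from each other. Cnih3 was highest in granule neurons (129 ± 1.26 CPM), above CA1 pyramidal neurons (56.3 ± 10.8), and stood at 13.1 ± 2.32 in CA3 pyramidal neurons. Cnih2 had no class that stood apart: microglia (68.2 ± 13.1 CPM), oligodendrocytes (57.3 ± 2.29), oligodendrocyte precursors (48.7 ± 11.3), astrocytes (46.8 ± 8.67) and CA1 pyramidal neurons (45.9 ± 3.79) overlapped with their neighbours. Cnih2 correlated negatively with every other member over the 13 classes (Pearson r from -0.682 to -0.106), while the closest pair was Shisa7 and Cacng8 (r = 0.860), followed by Cnih3 and Cacng3 (r = 0.80). The classes share the 6 libraries, and these correlations are descriptions.

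**Figure D1:**
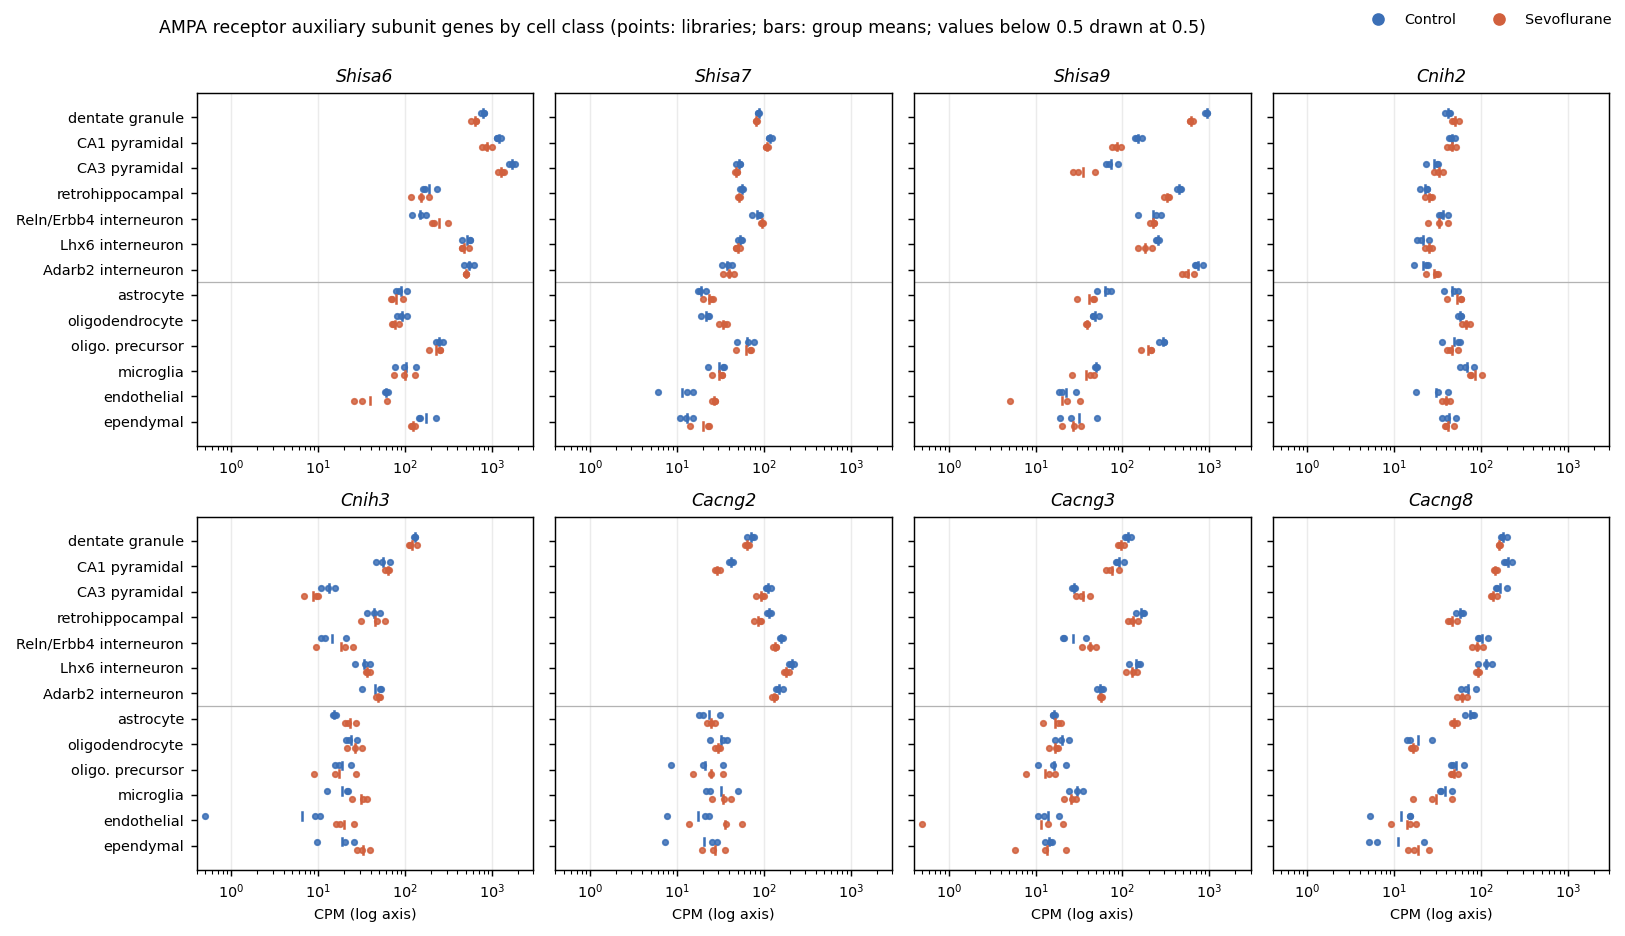
Levels of the 8 genes in 13 cell classes, in CPM on a log axis; each point is a library, bars are group means, and neuron subtypes lie above the grey line. Shisa6 peaked in CA3 pyramidal neurons (1700 CPM in Control) and Shisa9 in granule neurons (930 CPM).

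Shisa9, the gene for which the set was chosen, was lower with sevoflurane in all neurons, at 456, 492 and 451 CPM in Control 1 to 3 and 304, 296 and 309 in Sevoflurane 1 to 3. The groups did not overlap, and the log2 fold change of Sevoflurane over Control was -0.62 (SE 0.06). In granule neurons the Control libraries had 948, 945 and 897 CPM and the Sevoflurane libraries 656, 607 and 605, a log2 fold change of -0.58 (SE 0.06). In CA1 pyramidal neurons the values were 140, 168 and 149 CPM against 76.9, 85.5 and 96.6 (-0.82, SE 0.10). CA3 pyramidal neurons, which held the lowest Shisa9 level of the subtypes, had 88.1, 65.2 and 70.3 CPM against 27.0, 48.8 and 30.7 (-1.07, SE 0.20). The Control range in CA3 pyramidal neurons overlapped that of astrocytes (63.8 ± 11.8 CPM), and the Sevoflurane mean was 35.5 CPM against 41.3 in astrocytes. Per cell there were 0.381 to 1.26 UMIs of Shisa9 in CA3 pyramidal neurons and 0.0862 to 0.223 in astrocytes. Free RNA was not removed, and its part in the CA3 value was not tested. The log2 fold change of Shisa9 was -0.48 in retrohippocampal neurons, -0.46 in Lhx6-lineage and -0.39 in Adarb2-lineage interneurons. In all of these subtypes the groups did not overlap. The Reln/Erbb4 interneuron cluster was the exception: Control had 278, 152 and 243 CPM and Sevoflurane 210, 232 and 228, so that the groups overlapped and the log2 fold change was -0.02 (SE 0.17).

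The level of Shisa9 in neurons depends on the mix of subtypes, since granule neurons held more of it than the rest. Granule neurons made up 31.3 ± 5.53% of neurons in Control and 34.8 ± 1.59% in Sevoflurane (SD, n = 3 each; two-sided exact permutation p = 0.4, where 0.1 is the smallest p that 3 against 3 libraries allow). With neuron clusters taken in equal proportions in every library, the Shisa9 value was -0.52 (SE 0.06). The granule neurons themselves fell into 2 clusters, and the one with the lower median depth (5601 against 7995.5 UMIs per cell) held 12.9% to 41.5% of granule neurons in Control libraries and 44.9% to 70.6% in Sevoflurane libraries. With both granule clusters in equal numbers the Shisa9 value was -0.49, and it was -0.58 and -0.47 within the clusters, all chosen after seeing the data. Removing a smooth trend with gene length moved it to -0.43 in granule neurons.

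Of the other 7 members, Cacng2 fell in neurons as a whole. Its levels were 95.8, 83.8 and 83.4 CPM in Control and 66.5, 66.4 and 71.1 in Sevoflurane, so every Sevoflurane library lay below every Control library. The log2 fold change was -0.37 (SE 0.07; edgeR quasi-likelihood test with Benjamini-Hochberg adjustment, adjusted p = 0.0326). This was 1 call among 7 members, where edgeR called 4.14% of the 18868 genes tested in neurons. DESeq2 called 2 members (Cacng2 and Cacng3). Here and below, shares of all genes called are those of edgeR. No such share is given for DESeq2, so its counts cannot be set against one. The call of Cacng2 was lost whichever library was left out (edgeR adjusted p from 0.0510 to 0.0907), and without Sevoflurane 1 the value was -0.35. In neurons the CA1 markers summed to 353 to 375 CPM in Control and 336 to 344 CPM in Sevoflurane and the astrocyte markers to 618 to 669 and 553 to 609.8 CPM, and their part in the value was not tested.

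The remaining 6 members did not pass in neurons. Cacng3 had 111, 120 and 105 CPM in Control and 99.9, 73.6 and 86.2 in Sevoflurane, with no overlap (-0.37, SE 0.11; edgeR adjusted p = 0.102). Without Sevoflurane 1 its value was -0.49 and the edgeR adjusted p was 0.0459, and with neuron clusters in equal proportions it was -0.25. Cacng8 had 163, 140 and 129 CPM against 122, 128 and 114 (-0.25, SE 0.09; edgeR adjusted p = 0.177). Groups also did not overlap for Shisa7, a CKAMP gene whose product has also been described with GABA-A receptors, at 77.7 ± 2.70 and 71.6 ± 0.461 CPM. In all, 4 of these 7 members had every Sevoflurane library below every Control library, where 13.8% of genes did. The median log2 fold change of the 7 was -0.25, against 0.02 for all genes tested.

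Shisa6 had overlapping groups in neurons, at 819, 894 and 731 CPM in Control and 606, 751 and 670 in Sevoflurane (-0.27, SE 0.10; edgeR adjusted p = 0.168). It is among the longest genes, longer than 98.2% of annotated ones, and its value was -0.12 once a smooth trend with gene length was removed. Shisa6 passed in 1 of 17 alternatives, that with neuron clusters in equal proportions (edgeR adjusted p = 0.0402). Neither cornichon passed: Cnih2 had 33.0 ± 1.61 CPM in Control and 37.9 ± 3.57 in Sevoflurane (0.20, SE 0.08; edgeR adjusted p = 0.218), and Cnih3 had 70.0 ± 8.41 and 69.9 ± 3.68 (-0.00, SE 0.09; edgeR adjusted p = 0.990).

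**Figure D2:**
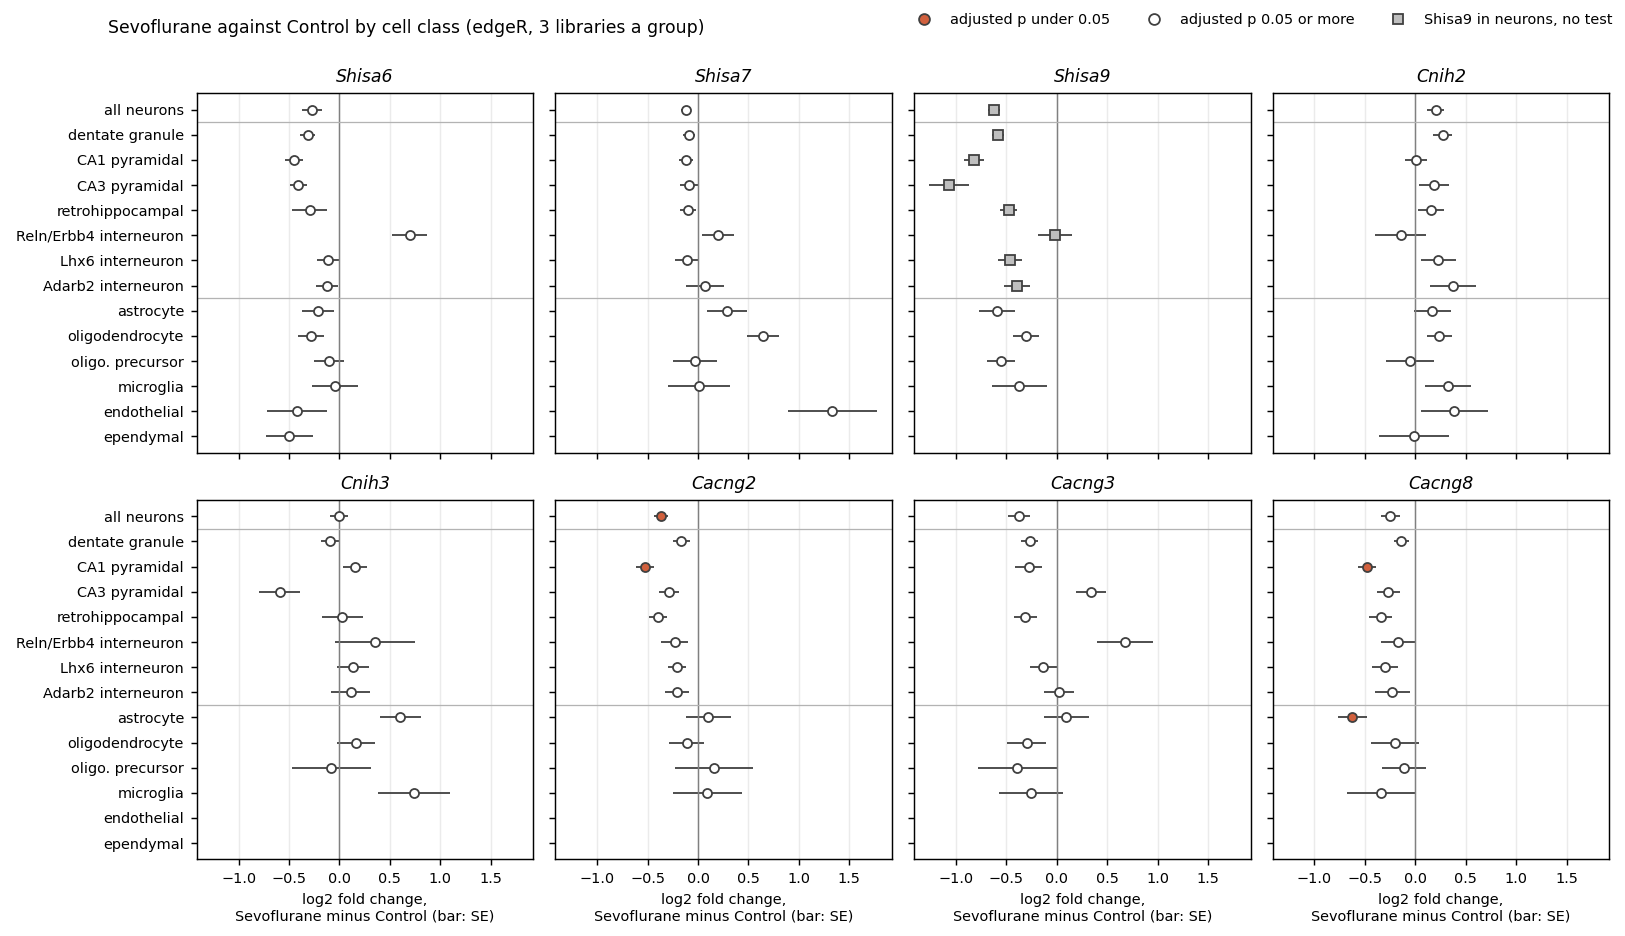
Log2 fold change of Sevoflurane minus Control for each gene (panel) and cell class (line), with bars of 1 SE. Filled circles passed an adjusted p of 0.05 (Cacng2 in neurons and CA1, Cacng8 in CA1 and astrocytes), and grey squares are the Shisa9 values in neurons, which carry no test.

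CA1 pyramidal neurons were the subtype in which members passed the test, with TARP genes Cacng2 and Cacng8 lower after sevoflurane. Cacng2 had 42.5, 43.9 and 39.9 CPM in Control and 31.0, 27.4 and 29.3 in Sevoflurane. The groups lay apart by more than their own spread, and the fall was -0.53 on the log2 scale (SE 0.09; edgeR adjusted p = 0.0294). The Control range overlapped that of microglia (32.0 ± 15.9 CPM), and the Sevoflurane mean of 29.3 CPM stood beside 29.5 in Sevoflurane oligodendrocytes. Per cell there were 0.267 to 0.491 UMIs of Cacng2 in CA1 pyramidal neurons and 0.0433 to 0.102 in microglia. Free RNA was not removed, and its part in the value was not tested. Cacng8 had 229, 191 and 186 CPM in Control and 151, 144 and 140 in Sevoflurane (-0.48, SE 0.09; edgeR adjusted p = 0.0395). These were 2 calls among 7 members, where 1.33% of 14339 genes were called in CA1 pyramidal neurons, and DESeq2 called Shisa6 as well.

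Both CA1 calls held without Sevoflurane 1 (-0.57 for Cacng2 and -0.51 for Cacng8), and each was lost when any of the other 5 libraries was left out (edgeR adjusted p up to 0.154 for Cacng2 and 0.118 for Cacng8). With each cell classed by its own markers neither passed (-0.52, edgeR adjusted p = 0.0522, for Cacng2 and -0.42, edgeR adjusted p = 0.0907, for Cacng8). Gm44151, annotated opposite Cacng8, had 214, 269 and 254 CPM in Control and 153, 191 and 159 in Sevoflurane in the same cells (-0.55, SE 0.11; edgeR adjusted p = 0.0432). A730060N03Rik, annotated opposite Cacng2, stood at 4.62 and 2.75 CPM (-0.76; edgeR adjusted p = 0.174). The granule markers summed to 96.1 to 108 CPM in Control and 109.6 to 125 CPM in Sevoflurane CA1 pyramidal neurons, and their part in these values was not tested.

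Shisa6 in CA1 pyramidal neurons had 1149, 1273 and 1142 CPM in Control and 762, 857 and 990 in Sevoflurane. No libraries overlapped, and the value of -0.45 (SE 0.09) missed the threshold (edgeR adjusted p = 0.0511). The other values in CA1 pyramidal neurons were -0.28 for Cacng3, -0.12 for Shisa7, 0.15 for Cnih3 and 0.00 for Cnih2, with edgeR adjusted p of at least 0.311. The median over the 7 members was -0.28, against 0.02 over all genes tested there.

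**Figure D3:**
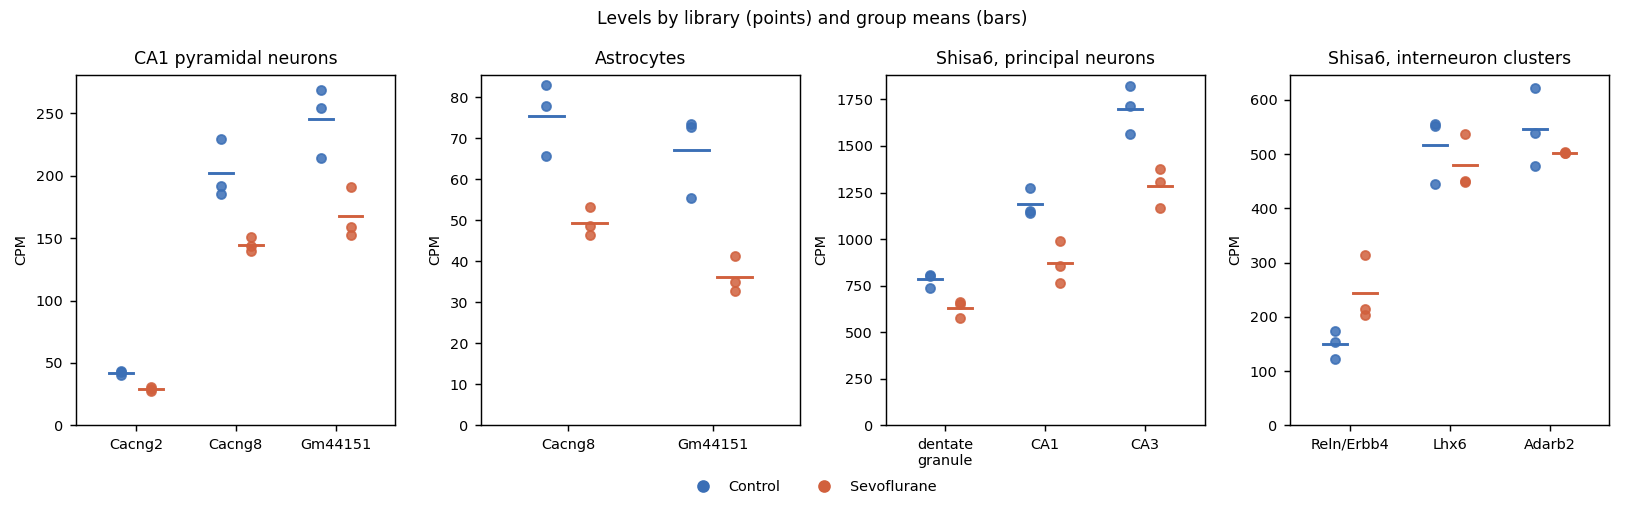
CPM by library (points) with group means (bars), on axes that start at 0: Cacng2, Cacng8 and the opposite-strand Gm44151 in CA1 pyramidal neurons, Cacng8 and Gm44151 in astrocytes, and Shisa6 in principal neurons and interneuron clusters. Shisa6 was lower in Sevoflurane in the principal neurons (CA3: 1700 to 1283 CPM) and higher in the Reln/Erbb4 cluster (149 to 244 CPM).

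In granule neurons none of the 7 members other than Shisa9 passed edgeR, where 3.56% of 15471 genes did. At an unadjusted p under 0.05, which 18.8% of genes reached, there were 3 of them (Shisa6, Cnih2 and Cacng3), and DESeq2 called 1 (Shisa6). Shisa6 had 804, 809 and 737 CPM in Control and 577, 662 and 653 in Sevoflurane, with no overlap (-0.31, SE 0.07; edgeR adjusted p = 0.0539), and removing the trend with gene length gave -0.16. Cnih2 was the only member whose Sevoflurane libraries all lay above the Control libraries here, at 43.0, 38.7 and 43.9 CPM against 56.4, 48.7 and 46.2 (0.27, SE 0.10; edgeR adjusted p = 0.171). Cacng8 stood at 179 ± 15.5 and 163 ± 2.68 CPM (-0.14, SE 0.07; edgeR adjusted p = 0.365). The granule markers summed to 1880 to 1944 CPM in Control granule neurons and 1554 to 1792 CPM in Sevoflurane ones, and the general neuron markers to 8798 to 9148 and 7990 to 8567 CPM. The CA1 markers went the other way, at 43.2 to 45.0 and 51.0 to 57.2 CPM, while the astrocyte markers stood at 1221 to 1328 and 1118 to 1168 CPM. None of these 4 sums overlapped between groups, and their part in the granule values was not tested.

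CA3 pyramidal neurons had no call either by edgeR, where 0.251% of genes passed, with 5 of 7 members at an unadjusted p under 0.05 (13.1% of genes) and 1 called by DESeq2 (Shisa6). Shisa6 had 1713, 1822 and 1565 CPM in Control and 1165, 1309 and 1376 in Sevoflurane, again with no overlap (-0.41, SE 0.08; edgeR adjusted p = 0.0646), and -0.26 after the length trend was removed. Cnih3 had 10.9, 15.5 and 13.1 CPM against 9.96, 6.85 and 9.37 (-0.59, SE 0.20; edgeR adjusted p = 0.247). Cacng3 differed in sign from the rest of the TARP genes in these neurons, with 26.4, 28.0 and 28.6 CPM in Control and 42.6, 33.1 and 29.0 in Sevoflurane (0.34, SE 0.15; edgeR adjusted p = 0.358). The Cacng3 value was 0.17 without Sevoflurane 1, 0.08 with doublets kept and 0.10 with each cell classed by its own markers.

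In retrohippocampal excitatory neurons edgeR called none of the 7 (0.544% of genes were called), with 3 at an unadjusted p under 0.05 (13.5% of genes) and 1 called by DESeq2. That one was Cacng2, with 120, 114 and 110 CPM in Control and 93.0, 77.3 and 90.6 in Sevoflurane (-0.39, SE 0.09; edgeR adjusted p = 0.0946). Among Lhx6-lineage interneurons edgeR called none (0.472% of genes), with 2 at an unadjusted p under 0.05 (11.7% of genes) and 0 by DESeq2. Cacng2, at its highest level there, stood at 209 ± 12.9 and 181 ± 10.9 CPM with no overlap (-0.21, SE 0.09; edgeR adjusted p = 0.402). In Adarb2-lineage interneurons edgeR, DESeq2 and the unadjusted p each gave 0 of 7 members (0.503% of genes were called by edgeR and 10.3% reached the unadjusted p). Cacng2 had a log2 fold change below 0 in all 7 subtypes, from -0.53 to -0.17, as did Cacng8, from -0.48 to -0.14.

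Shisa6 had the opposite sign in the Reln/Erbb4 interneuron cluster, which held 79 to 104 cells per library and 80 to 230 UMIs of Shisa6. Its levels were 173, 121 and 153 CPM in Control and 214, 314 and 203 in Sevoflurane. The Control mean of 149 CPM was the lowest of the neuron subtypes and below that of oligodendrocyte precursors (246). Its range overlapped that of microglia (102 ± 27.7 CPM), and free RNA was not removed. Every Sevoflurane library lay above every Control library, and the value of 0.70 (SE 0.17) missed the threshold (edgeR adjusted p = 0.0581). In this cluster edgeR called none of the 7 members (1.47% of 8611 genes were called), with 2 at an unadjusted p under 0.05 (10.8% of genes) and 1 by DESeq2 (Shisa6). The value was 0.38 with doublets kept. The granule neuron markers summed to 113 to 153 CPM in the Control and 148 to 178 CPM in the Sevoflurane libraries of this cluster. The CA1 markers summed to 295 to 326 CPM in Control and 256 to 275 CPM in Sevoflurane, with no overlap, and the part of either list in the value was not tested.

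The difference of the sevoflurane effect between neuron subtypes was tested for all 21 pairs of the 7 subtypes, which gave 147 values for the 7 members other than Shisa9. Of these 6 passed, where 0.159% of all 289016 gene and pair values did. For Shisa6 the effect in the Reln/Erbb4 cluster exceeded that in granule neurons by 0.96 (SE 0.17; edgeR interaction test, adjusted p = 0.00507; 0.261% of genes passed in this pair). It exceeded that in CA1 pyramidal neurons by 1.13 (SE 0.19; edgeR adjusted p = 0.00423; 0.278% of genes) and that in CA3 pyramidal neurons by 1.09 (SE 0.18; edgeR adjusted p = 0.00621; 0.3% of genes). These 3 Shisa6 differences passed under all 7 alternatives run for them, which were RLE factors and each of the 6 libraries left out. They were not rerun with doublets kept, where the Shisa6 value in the cluster itself was 0.38. The differences of Shisa6 from retrohippocampal neurons (0.92 for Reln/Erbb4 minus retrohippocampal; edgeR adjusted p = 0.0658) and from Lhx6-lineage interneurons (-0.76 for Lhx6 minus Reln/Erbb4; edgeR adjusted p = 0.0652) did not pass.

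The TARP genes differed between subtypes in 3 of the tested values. The Cacng8 effect in CA1 pyramidal neurons minus that in granule neurons was -0.32 (SE 0.07; edgeR adjusted p = 0.0475; 0.726% of genes passed in this pair). The Cacng3 effect in CA3 pyramidal neurons lay above that in granule neurons by 0.59 (SE 0.12; edgeR adjusted p = 0.0385; 0.572% of genes) and above that in CA1 pyramidal neurons by 0.62 (SE 0.11; edgeR adjusted p = 0.0386; 0.11% of genes). Each of these 3 TARP differences passed in 2 of 7 alternatives. Without Sevoflurane 1 the Cacng8 difference was -0.36 and passed, while the Cacng3 differences were 0.49 and 0.57 and did not pass.

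Outside neurons Cacng8 fell in astrocytes, the glial class in which its level was highest. Its values were 83.1, 77.8 and 65.6 CPM in Control and 53.3, 46.3 and 48.7 in Sevoflurane, from 65 to 193 UMIs per library. The groups did not overlap, and the log2 fold change was -0.62 (SE 0.14; edgeR adjusted p = 0.0323). This was 1 call among 8 members, where 2% of 12323 genes were called in astrocytes, and DESeq2 called the same gene. The call held without Sevoflurane 1 (-0.67) and was lost when any of the other 5 libraries was left out (edgeR adjusted p up to 0.158). Gm44151, opposite Cacng8, had 55.4, 73.4 and 72.7 CPM in Control and 32.8, 34.8 and 41.2 in Sevoflurane in astrocytes (-0.87, SE 0.16; edgeR adjusted p = 0.0101). The 8 astrocyte markers themselves summed to 12824 to 13037 CPM in the Control and 10636 to 12695 CPM in the Sevoflurane astrocytes, with no overlap, and their part in the Cacng8 value was not tested.

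Shisa9 was tested in glia, whose cells the choice of the set had not used. Free RNA was not removed, so glial counts may hold Shisa9 RNA from neurons, whose fall chose the set. The glial values are thus not independent of the choice, and the part of free RNA in them was not tested. In oligodendrocyte precursors Shisa9 had 303, 302 and 264 CPM in Control and 214, 214 and 165 in Sevoflurane, with no overlap. The value of -0.56 (SE 0.14) did not pass edgeR (adjusted p = 0.0906) and passed DESeq2 (adjusted p = 0.0293), so that edgeR called 0 of 8 members there (0.305% of genes), with 1 at an unadjusted p under 0.05 (10.8% of genes). In astrocytes Shisa9 had 74.0, 66.5 and 50.8 CPM in Control and 30.3, 46.3 and 47.1 in Sevoflurane (-0.59, SE 0.18; edgeR adjusted p = 0.119), and in oligodendrocytes the values were 48.0 ± 4.41 and 39.1 ± 0.615 CPM (-0.30, SE 0.13; edgeR adjusted p = 0.342).

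Shisa7 had a positive sign in oligodendrocytes, with 22.8, 23.3 and 19.0 CPM in Control and 30.3, 35.3 and 37.3 in Sevoflurane (0.64, SE 0.16; edgeR adjusted p = 0.11). There edgeR called 0 of 8 members (0.474% of genes), with 2 at an unadjusted p under 0.05 (13.3% of genes) and 0 by DESeq2. In endothelial cells Shisa7 rested on 4 to 20 UMIs per library (1.33, SE 0.44; edgeR adjusted p = 0.146), only 3 members passed the filter on low counts, and edgeR called 0 of them (2.32% of genes), with 1 at an unadjusted p under 0.05 (13.1% of genes) and 0 by DESeq2. In ependymal cells 2 members passed the filter, with 0 called by edgeR (0.567% of genes), 1 at an unadjusted p under 0.05 (Shisa6, -0.50; 9.63% of genes) and 0 by DESeq2. In microglia the counts were 0 of 8 by edgeR, at an unadjusted p under 0.05 and by DESeq2 (0.349% of genes by edgeR, 8.85% at the unadjusted p).

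Free RNA that enters droplets was not removed from the counts, so the members' UMIs per cell in glia are set beside those of 10 neuron markers. The markers' median in glial and vascular classes was 15.7% to 21.6% of their UMIs per cell in neurons. Single markers ran from 3.22% in microglia to 75.2% in oligodendrocytes, and no member stood above the highest marker in any class. Cacng8 stood at 14.5% in astrocytes and 14.2% in oligodendrocyte precursors, and at 3.18% to 5.03% in oligodendrocytes, microglia, endothelial and ependymal cells. Shisa9 stood at 23.4% in oligodendrocyte precursors, 4.35% in astrocytes and 2.25% to 2.81% in the other classes. These shares differed between classes in the same libraries, at 0.143 to 0.25 UMIs of Cacng8 per astrocyte against 0.0307 to 0.0670 per oligodendrocyte. Cnih2 was at 41.2% to 48.2% in every class. The neuron markers in astrocytes summed to 2465 to 3098 CPM in Control and 2705 to 3268 in Sevoflurane, and their part in the glial values was not tested.

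**Figure D4:**
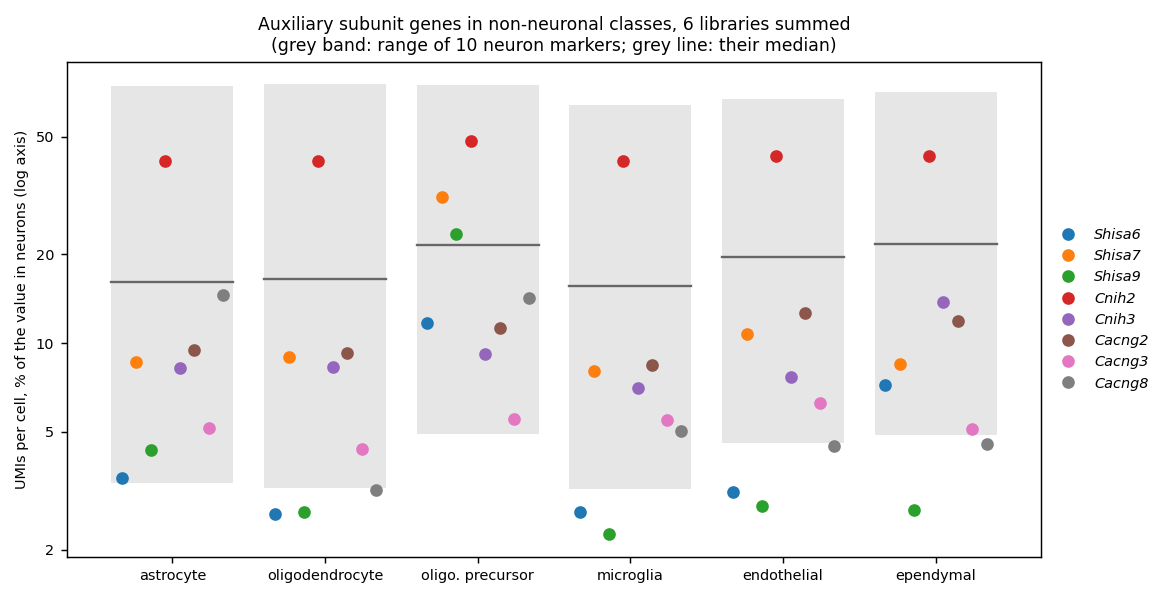
UMIs per cell in each non-neuronal class as a percent of the value in neurons, on a log axis, with the 6 libraries summed; points are the 8 genes, the grey band the range of the 10 neuron markers and the grey line their median. Cacng8 stood at 14.5% in astrocytes against 3.18% in oligodendrocytes, and Shisa9 at 23.4% in oligodendrocyte precursors.

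The pore-forming subunits did not pass the test in neurons as a whole: by edgeR 0 of the 4 genes Gria1 to Gria4 were called there, with 1 at an unadjusted p under 0.05 (20.9% of all genes) and 1 by DESeq2, and values ran from -0.49 for Gria4 (SE 0.12; edgeR adjusted p = 0.0654) to -0.01 for Gria2. In CA1 pyramidal neurons Gria1 stood at 4486 CPM in Control and 3601 in Sevoflurane (-0.32, SE 0.07; edgeR adjusted p = 0.0552). In every neuron subtype but the Reln/Erbb4 cluster edgeR called 0 of the 4, where it called 0.251% to 3.56% of all genes. DESeq2 called 2 in CA1 pyramidal neurons and in both the Lhx6 and Adarb2 lineages, 1 in CA3 pyramidal and retrohippocampal neurons, and 0 in granule neurons. At an unadjusted p under 0.05 there were 3 in Adarb2-lineage interneurons and 2 in each of the others. In these subtypes 10.3% to 18.8% of all genes reached it. Gria4, a fast-gating subunit, fell in 2 classes. In the Reln/Erbb4 interneuron cluster it had 1813, 1947 and 1680 CPM in Control and 1212, 1307 and 1397 in Sevoflurane (-0.47; edgeR adjusted p = 0.0362). In oligodendrocyte precursors it had 1220, 1246 and 1010 CPM against 819, 689 and 807 (-0.59, SE 0.12; edgeR adjusted p = 0.0395). In both classes the groups did not overlap, and each was 1 call among 4 genes. Of all genes edgeR called 1.47% in the Reln/Erbb4 cluster and 0.305% in oligodendrocyte precursors. Without Sevoflurane 1 neither Gria4 call passed edgeR (-0.43, adjusted p = 0.0931, and -0.63, adjusted p = 0.0659).

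Among 13 other auxiliary subunit genes tested in neurons, 1 rose and 1 fell by edgeR, with 7 at an unadjusted p under 0.05 and 5 by DESeq2, where edgeR called 4.14% of all genes and 20.9% reached the unadjusted p. Cacng5, the gene of a further TARP, rose from 5.76, 4.26 and 5.72 CPM in Control to 10.5, 12.7 and 9.11 in Sevoflurane (1.04, SE 0.17; edgeR adjusted p = 0.0208). It rose in granule neurons too, from 7.97, 5.61 and 8.49 CPM to 16.4, 17.9 and 14.3 (1.15, SE 0.17, edgeR adjusted p = 0.0112), and its levels were low in both. In granule neurons this was 1 call among 11 genes of the list, where edgeR called 3.56% of all genes. There 6 of the 11 reached an unadjusted p under 0.05 (18.8% of all genes) and DESeq2 called 2. Olfm3, which encodes a secreted olfactomedin found with AMPA receptors, fell in neurons from 120 to 90.7 CPM (-0.41; edgeR adjusted p = 0.0470). Prrt1, also known as SynDIG4, fell in CA1 pyramidal neurons from 86.2, 76.5 and 91.4 CPM to 63.8, 56.5 and 50.2 (-0.57, edgeR adjusted p = 0.0306). It was the only 1 of 11 other auxiliary genes called there, where edgeR called 1.33% of all genes. In that class 6 of the 11 reached an unadjusted p under 0.05 (17.4% of all genes) and DESeq2 called 1. Without Sevoflurane 1 the Cacng5 and Prrt1 calls held in edgeR, and that of Olfm3 was lost (-0.46; edgeR adjusted p = 0.0599).

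Of 13 scaffold and trafficking genes 1 fell in neurons, Dlg1, which encodes the scaffold SAP97, from 249 to 183 CPM (-0.45; edgeR adjusted p = 0.0275). In this list 3 reached an unadjusted p under 0.05 and DESeq2 called 3, beside the same 4.14% and 20.9% of all genes. Dlg1 fell in granule neurons from 236 to 179 CPM (-0.40, edgeR adjusted p = 0.0144). It was 1 call among 13 there, where edgeR called 3.56% of all genes. At an unadjusted p under 0.05 there were 3 (18.8% of all genes), and DESeq2 called 1. In CA1 pyramidal neurons the 1 gene of this list that fell was Camk2a, a kinase of the postsynaptic density, from 1526 to 1236 CPM (-0.30, edgeR adjusted p = 0.0446). There edgeR called 1.33% of all genes, and 5 of the 13 reached an unadjusted p under 0.05 (17.4% of all genes), with 3 by DESeq2. Of 8 genes for secreted clustering proteins and their partners, none passed edgeR in neurons (4 at an unadjusted p under 0.05, which 20.9% of all genes reached, and 1 by DESeq2). In granule neurons 1 of the 8 fell, Adam22, the receptor of LGI1, from 333 to 268 CPM (-0.32, edgeR adjusted p = 0.0381). This stands beside 3.56% of all genes called in granule neurons. Of the 8, 3 reached an unadjusted p under 0.05 there (18.8% of all genes) and DESeq2 called 1. Without Sevoflurane 1 the Dlg1 calls held in edgeR, and those of Camk2a (-0.26; edgeR adjusted p = 0.0619) and Adam22 (-0.32; edgeR adjusted p = 0.0603) were lost. Of the 6 genes for assembly in the endoplasmic reticulum, 0 passed edgeR in neurons, granule neurons or CA1 pyramidal neurons, and 0 did so at an unadjusted p under 0.05 or by DESeq2. In neurons edgeR and DESeq2 called 0 of the 6 other SHISA family genes, with 1 at an unadjusted p under 0.05, and 0 of 3 further calcium channel gamma and cornichon genes, with 0 at an unadjusted p under 0.05. The lists' median log2 fold changes in neurons were -0.16 for the pore-forming subunits, -0.19 for the other auxiliary subunits, -0.11 for scaffolds, -0.07 for assembly genes, 0.12 for secreted proteins, -0.02 for the other SHISA genes and 0.39 for the further calcium channel gamma and cornichon genes, against 0.02 over all genes tested.

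The genes most like each member in level over the 13 classes were found from the Control means of 12165 genes, as Pearson r of log2 CPM. For the TARP genes with an annotated antisense partner that partner came first: A730060N03Rik with Cacng2 (r = 0.973) and Gm44151 with Cacng8 (r = 0.965). They were followed by Srrm4 (0.958) and Kifc2 (0.949) for Cacng2, and by Dlgap1 (0.933) and Gm28750 (0.921) for Cacng8. Cacng3 was closest to Sh2d5 (0.901), Epha10 (0.888) and Pde4a (0.886). Shisa6 was closest to Lurap1l (0.911), Iqschfp (0.894) and Hectd2 (0.889), and Shisa9 to Scn3a (0.932), Xkr6 (0.923) and Mamld1 (0.914). For Shisa7 the genes were Tmem191c (0.952), Fam57b (0.938) and Grm5 (0.938). Cnih3 was closest to Gba2 (0.857), Npy5r (0.849) and Kcnk9 (0.841), and Cnih2 to Zfp809 (0.90), Odr4 (0.898) and Nol8 (0.894). The points share libraries and depth, and r is a description.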

How the data were processed

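Each of the 6 libraries was deposited as whole UMI counts for every gene in every barcode called as a cell, and the authors had counted with Cell Ranger 6.1.1, as stated per the file headers, from the 10x Single Cell 3′ v3.1 assay. The submitters' processing notes list CASAVA 1.8 and Seurat beside it, with no role. Build, annotation and strand setting are not stated. Per the labels' protocols, tissue was digested with collagenase, filtered and frozen before capture. Library totals were summed from the deposited counts.

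Cells needed 500 UMIs, 300 genes and no more than 20% of UMIs from mitochondrial genes, and 5.64% to 7.81% per library were removed as doublets by Scrublet score in scanpy 1.11.5 (0.8% per 1000 cells). With 2000 variable genes, 30 principal components and 15 neighbours, Leiden clustering at resolution 1 was run, and clusters were named by markers. Counts were summed per library and class (at least 20 cells in every library), with no correction for free RNA, and the groups were compared in R 4.3.3 with edgeR 4.0.16 (quasi-likelihood test, TMM factors, filterByExpr, Benjamini-Hochberg adjustment over all genes of a class, threshold 0.05). Differences between subtypes were tested as a subtype by group interaction, blocked on library, with Shisa9 left out since its neuron values chose the set. DESeq2 1.42.0 and the other alternatives are given in the closing section, without the share of all genes that each of them called. The tests were checked on simulated data with known answers. A simulated log2 change of 0.5 was called for 42% of changed genes in neurons, 39% in granule neurons and 18% in astrocytes. For a change of 1 these shares were 100%, 100% and 94%. A value near 0.5 that did not pass is thus not shown to be absent.

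All 8 members were named in every class, with the 3 genes most like each (at least 20 CPM in a class, 1 CPM added) and the called genes of the pathway lists in neurons and neuron subtypes. Gria4 in oligodendrocyte precursors was added after its values were seen. Members and lists were chosen with earlier results of these data known.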

Additional observations from a re-analysis of the deposited data

Results flagged for a closer look

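The effect of sevoflurane differed between neuron subtypes for 6 member and pair values in the edgeR interaction test, with BH adjustment over all genes of a pair and the library as a block. For Shisa6, the log2 fold change in the Reln/Erbb4 interneuron cluster was higher than in dentate granule neurons by 0.96, than in CA1 pyramidal neurons by 1.13 and than in CA3 pyramidal neurons by 1.09. The cluster held 79 to 104 cells per library. Classing cells by their own markers offered no such class, so the cluster could not be examined that way. For Cacng8, the value in CA1 pyramidal neurons minus that in granule neurons was -0.32. For Cacng3, CA3 pyramidal minus granule neurons was 0.59 and CA3 pyramidal minus CA1 pyramidal neurons was 0.62. The Cacng8 and Cacng3 differences each passed in 2 of 7 alternatives, and neither Cacng3 difference passed without Sevoflurane 1. The pairs share subtypes and libraries, so these values are not independent of each other, and why the subtypes differ was not tested.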

How the results depend on the processing

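No result changed its direction among those that passed the test in any setting. Members other than Shisa9 called in all neurons numbered 1, against 2 with DESeq2, 2 with neuron clusters in equal proportions and 0 to 1 when a library was left out. Gene and neuron subtype pairs called (Shisa9 left out) numbered 2 of 49, against 7 with DESeq2, 7 with no filter, 4 with doublets kept and 0 to 3 when a library was left out. Gene and glial class pairs numbered 1 of 37, against 2 with DESeq2, 4 with no filter and 0 to 1 when a library was left out. Calls of differences between subtypes numbered 6, against 8 with RLE factors and 3 to 5 when a library was left out (3 without any one Control library). Same-numbered libraries did not deviate together (r = -0.047, 0.028 and -0.010), so the numbers are not taken as pairs, and the fit with the replicate block called 0, 0 and 0 in the first 3 counts. RLE factors, the stricter filter of 10 CPM in 3 libraries, cells with at least 1000 UMIs, classes by own markers, removal of the length trend and, chosen after seeing the data, leaving out neuron clusters rare in Control kept these counts within 1.5 times. A like count need not hold the same calls. With classes by own markers both CA1 calls were lost. The subtype pairs called there were Shisa6 in granule and CA3 pyramidal neurons and Cacng2 in retrohippocampal neurons. Of the named subtypes, 1 had shares whose groups did not overlap (Adarb2-lineage interneurons, 3.11% and 2.58% of neurons, exact permutation p = 0.1) and 0 did with classes by own markers, where the unnamed neurons did not overlap (20.4% and 24.2%, exact permutation p = 0.1). Of 1540 alternative values of members, 81 had another sign, none of them in a gene and class called under any setting. The cause of these changes was not tested. Depth limits Cnih3, Cacng2 and Cacng3 in glia, and endothelial and ependymal values, which rest on few UMIs.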
